A study of Mus musculus with 26 samples.

Results

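The step described here leads from pre-granulocyte-macrophage progenitors (PreGM) to granulocyte-macrophage progenitors (GMP), both without signal from a Gata1 reporter, in mouse bone marrow. It was taken as the 4 arrays labelled GMP GFP- against the 3 arrays labelled PreGM GFP-, which are 7 of the 26 arrays of the series, and all 19938 genes that had a probe set naming 1 gene were tested. GMP GFP- cells were sorted as lineage-negative, Kit-positive, Sca1-negative and CD41-negative cells that carried the Fc gamma receptors II and III. PreGM GFP- cells had the same lineage, Kit, Sca1 and CD41 gates but lacked the Fc gamma receptors, CD150 and CD105. Cells of both groups came from mice of the genotype Gata1-EGFP Tg/+, aged 8 to 15 weeks, and were negative for the green fluorescent protein (GFP). The labels name no strain or sex, do not say how many animals gave an array, and do not say that replicates came from separate animals, so the p-values rest on a spread between samples that may be technical. The same gates with reporter signal gave 3 arrays of GMP GFP+ and 3 of PreGM GFP+, which serve below as a comparison.

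In the marrow, granulocytes and monocytes arise through progenitors that give up stem cell and lymphoid potential as they acquire myeloid gene expression. The transcription factors PU.1 (Spi1) and C/EBP alpha (Cebpa) act before and at the GMP stage, C/EBP epsilon (Cebpe) and Gfi1 in the granulocyte branch, and Irf8 in the monocyte and dendritic branch. Neutrophil precursors fill their primary (azurophil) granules first, with myeloperoxidase and serine proteases, and their secondary and tertiary granules later, with lactoferrin, cathelicidin and lipocalin.

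The deposited log2 signals of the 7 arrays had medians between 6.62 and 6.78 over these genes. The median over all arrays and genes, 6.75, is used as the level under which a signal is not shown to exceed background, and no fold is given from a group mean under it. Over all genes the arrays of GMP GFP- correlated with r between 0.978 and 0.989 and those of PreGM GFP- with r between 0.950 and 0.976. The lowest value belonged to a pair with PreGM GFP- array 2, which had the widest residuals of the 7 arrays. The genes of the Fc gamma receptors were higher in GMP GFP-, as gated. Fcgr3 had log2 signals of 9.91, 9.99, 8.98 and 9.21 in GMP GFP-, against 7.39, 7.54 and 7.53 in PreGM GFP-, and Fcgr2b was higher by 1.10 (SE 0.19, adjusted p = 0.00241). Gata1 averaged 6.42 in the GMP GFP- arrays and 6.73 in the PreGM GFP- arrays, both under the median signal. Kit averaged 9.71 in GMP GFP- and 9.79 in PreGM GFP-. Eng, which encodes CD105, had 7.32, 6.94, 6.85 and 6.86 in GMP GFP-, against 7.997, 7.63 and 7.47 in PreGM GFP-, although the PreGM GFP- gate was CD105-negative. Its difference of -0.71 was not called (adjusted p = 0.0967).

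The genes with the largest rises in GMP GFP- included several of neutrophil granules, and those with the largest falls included genes of lymphoid priming and of stem cells. Limma called 183 genes higher (0.918% of those tested) and 94 lower (0.471%) at a Benjamini-Hochberg adjusted p under 0.05, of which 111 and 54 differed by at least 2-fold. The shares of 0.918% and 0.471% are the background for the counts called in each gene list below. Over all genes 9215 had a difference above 0 and 10723 had one under 0. In 271 of the 277 called genes every array of 1 group lay above every array of the other. Such a separation was seen in all for 769 genes higher in GMP GFP- (3.86%) and for 743 genes lower (3.73%). The PreGM GFP- mean of 69 of the raised genes and the GMP GFP- mean of 30 of the lowered genes lay under the median signal, so the size of these changes is not exact. The counts depended on single arrays. Leaving out PreGM GFP- array 2 gave 105 higher genes, and leaving out PreGM GFP- array 1 or GMP GFP- array 1 gave 58 or 60 lower ones.

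The 15 genes with the largest rises were Ngp, Chil3, Gda, Camp, Ltf, S100a8, Ly6a2, Cybb, Gca, Lcn2, Clec4a2, B4galt6, Elane, Sgms2 and Mgst1, with log2 differences from 3.41 to 2.52. The 15 with the largest falls were Dntt, Angpt1, Ctla2a, Flt3, Rnase6, H2-Aa, Gimap6, Stxbp4, Myct1, Wfdc17, Car2, Slc18a2, Calcrl, Meis1 and Plek, with log2 differences from -4.54 to -1.67.

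Of 18 primary granule genes 4 rose in GMP GFP-, and 2 had both means under the median signal. Mpo, the myeloperoxidase gene, had log2 signals of 13.36, 13.37, 13.43 and 13.27 in GMP GFP-, against 13.04, 12.79 and 13.19 in PreGM GFP-. Every array of GMP GFP- lay above every array of PreGM GFP-, but the difference of 0.35 (95% interval -0.14 to 0.84, adjusted p = 0.838) was not called. Elane, which encodes neutrophil elastase, had 11.47, 11.64, 11.49 and 11.29 in GMP GFP-, against 8.72, 8.30 and 9.61 in PreGM GFP-. This is a rise of 2.60 (SE 0.22, adjusted p = 9.86e-08), or 6.05-fold, and the groups did not come near each other. Ms4a3, a membrane protein gene of granulocyte-monocyte progenitors, had 12.17, 12.11, 11.99 and 12.01 in GMP GFP-, against 10.09, 9.002 and 10.23 in PreGM GFP-. It rose by 2.29 (SE 0.27, adjusted p = 1.28e-05), and the spread lay almost wholly within PreGM GFP-, where array 2 was lowest.

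Prtn3, the proteinase 3 gene beside Elane on chromosome 10, rose by 1.21 (SE 0.28, adjusted p = 0.0240), and the protease inhibitor gene Serpinb1a by 0.91 (SE 0.18, adjusted p = 0.00822). Prtn3 lost its call under 6 of 14 alternatives, among them those without any 1 of the PreGM GFP- arrays. Ctsg, the cathepsin G gene, averaged 12.07 ± 0.12 (SD, n = 4) in the GMP GFP- arrays and 11.37 ± 0.13 (SD, n = 3) in those of PreGM GFP-, a difference of 0.70 (95% interval -0.05 to 1.45) that was not called. Cst7, which encodes the protease inhibitor cystatin F, differed by 1.02 (adjusted p = 0.0544) and the lysozyme gene Lyz2 by 1.35 (adjusted p = 0.230). In the whole primary granule list 0 genes fell and 17 had a difference above 0. Their median difference was 0.58, against -0.01 over all genes. Without PreGM GFP- array 2, 2 of the 18 were called, and the median was 0.52.

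Late neutrophil granule genes rose more, and several varied widely among the GMP GFP- arrays. Ltf, the lactoferrin gene, had log2 signals of 7.61, 9.24, 11.27 and 11.09 in GMP GFP-, against 6.42, 6.42 and 7.22 in PreGM GFP-. GMP GFP- array 1 lay just above the highest PreGM GFP- array, while arrays 3 and 4 lay far above it. Camp, which encodes the antimicrobial peptide precursor cathelicidin, had 8.81, 10.21, 11.09 and 11.19 in GMP GFP-, against 6.30, 7.65 and 7.62 in PreGM GFP-. Its order among the GMP GFP- arrays was much as for Ltf, with array 1 lowest and arrays 3 and 4 highest.

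The rise of Camp was 3.13 (SE 0.45, adjusted p = 0.000212), or 8.78-fold. That of Ltf was 3.12 (SE 0.56, adjusted p = 0.00269), from a mean under the median signal. Ngp, the neutrophilic granule protein gene, had 10.16, 11.26, 12.22 and 12.02 in GMP GFP-, against 7.51, 7.77 and 8.72 in PreGM GFP-, and rose by 3.41 (SE 0.75, adjusted p = 0.0188). The groups did not overlap for any of these genes, as the choice of the 15 largest rises required. Ngp nonetheless lost its call without GMP GFP- array 3 or 4 or without PreGM GFP- array 1 or 2, and Ltf lost it under 2 of 14 alternatives.

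Chil3, a chitinase-like protein gene of neutrophils and macrophages, rose by 3.23 (SE 0.44, adjusted p = 8.57e-05), and Lcn2, the gene of the iron-siderophore binding protein lipocalin 2, by 2.89 (SE 0.53, adjusted p = 0.00333). Hp, the haptoglobin gene, had 10.93, 10.87, 10.94 and 11.03 in GMP GFP-, against 9.17, 7.91 and 8.74 in PreGM GFP-. Unlike those of Ltf and Camp, the GMP GFP- arrays of Hp lay close together, and it rose by 2.34 (SE 0.28, adjusted p = 1.28e-05). The calgranulin genes S100a8 and S100a9, whose products pair in the neutrophil cytoplasm, had differences of 3.0 (adjusted p = 0.00572) and 2.43 (adjusted p = 0.199), and only the change of S100a8 was called. S100a8 and Lcn2 each lost their call under 2 of 14 alternatives, which for Lcn2 were the same as for Ltf. Ly6g, a surface antigen gene of mature neutrophils, had 6.36, 6.04, 9.41 and 6.74 in GMP GFP-, against 5.24, 5.51 and 5.37 in PreGM GFP-. Only GMP GFP- array 3 was well above the median signal for Ly6g, and the gene was not called. Mmp8, the neutrophil collagenase gene, was likewise above it only in arrays 3 and 4, at 7.48 and 8.07.

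Of 26 late neutrophil granule genes 14 rose and 0 fell, with a median difference of 1.69. Their mean log2 signal was 8.00, 8.40, 9.18 and 9.14 in GMP GFP- arrays 1 to 4, against 6.87, 7.14 and 7.15 in the arrays of PreGM GFP-. The remaining rises included Pglyrp1, a peptidoglycan recognition protein gene, by 1.98, Fcnb, a lectin gene of the ficolin family, by 1.70, Anxa1, the annexin A1 gene, by 1.68, and Mcemp1 by 2.04 from a mean under the median signal. With any of the 7 arrays left out, between 11 and 15 of the 26 were called higher. In bulk RNA, more cells of a type and more RNA per cell cannot be told apart. The mean of the list was 8.68 in GMP GFP-, against 7.26 in GMP GFP+ and 6.76 in PreGM GFP+. It was 7.52 in pre-megakaryocyte-erythroid progenitors (PreMegE) and between 6.26 and 6.36 in the stem and lymphoid groups. S100a8 averaged 11.98 in GMP GFP-, 10.86 in PreMegE and 8.98 in PreGM GFP-, and Ngp 11.41, 10.51 and 8.00 in these groups. The part of RNA from later neutrophils in these rises was not tested.

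**Figure D1:**
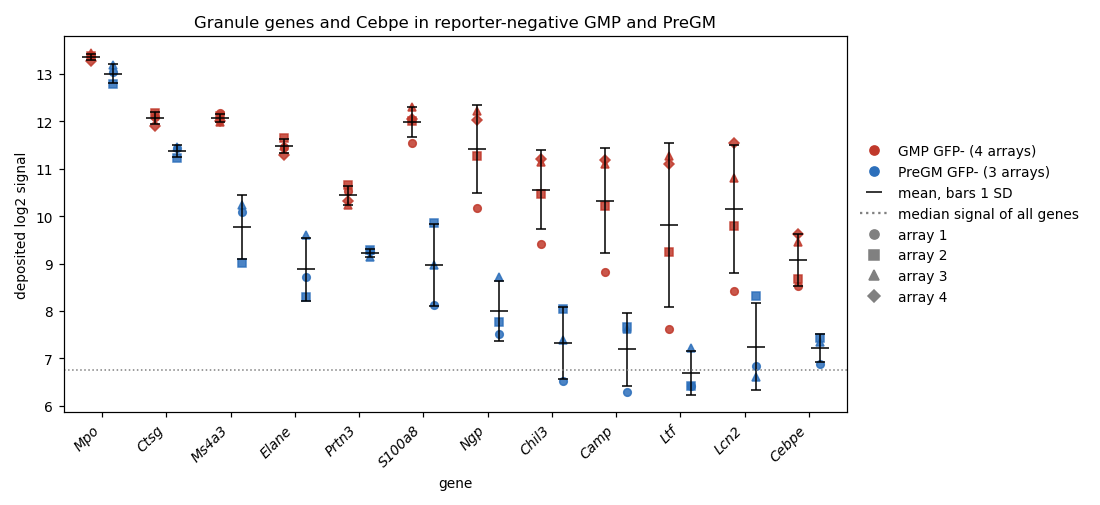
Deposited log2 signal (vertical axis) of granule genes and Cebpe in each of the 4 GMP GFP- arrays (red) and the 3 PreGM GFP- arrays (blue), with the mean and 1 SD as black bars, the array number as the marker shape and the median signal of 6.75 as a dotted line. Mpo is near 13 in both groups, Elane and Ms4a3 are tight in GMP GFP-, and Ltf runs between 7.61 and 11.27 over the GMP GFP- arrays.

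Promoters of both granule lists were searched for short motifs of myeloid factors in the window of 250 bases before and 50 after each start site (RefSeq, GRCm38.p6). The motifs were TTGCNNAA for C/EBP, AGGAAGT for PU.1, AACNGC for MYB, TGTGGT for RUNX and AGATAA for GATA factors, where N is any base, on both strands. Windows were found for 17 of the 18 primary and 21 of the 26 late granule genes, and none of the windows searched had overlapping matches of different motifs. Some genes had several start sites, giving 18 primary and 22 late windows. A PU.1 match stood in 9 of the primary and 9 of the late windows, and in 9.35% of all 32851 windows of the table. A C/EBP match stood in 3 of the primary and 9 of the late windows, and in 10.8% of all. Those of MYB stood in 9 primary and 11 late windows (35.9% of all), those of RUNX in 7 and 5 (16.8% of all) and those of GATA in 0 and 4 (11.2% of all). The same search over the 15 largest falls found a PU.1 match in 18.75% of windows and a C/EBP match in 12.5%. Over the 15 largest rises each stood in 25% of windows. Uncalled genes of the granule lists hold matches too, among them Mpo and Ctsg (PU.1) and S100a9 (C/EBP). Among raised genes not printed here, Lcn2, Chil3, Anxa1 and S100a8 hold a PU.1 or C/EBP match, while Camp, Pglyrp1 and Mcemp1 hold neither. The windows of Elane and Prtn3, of the primary, and of Ngp, Ltf and Fcnb, of the late granule genes, are printed as examples of raised genes with a match. They are given from 5′ to 3′ on the strand of the gene, and capitals mark PU.1 and C/EBP matches. The match begins 84 bases before the start site in Elane (PU.1), 94 before it in Prtn3 (PU.1), 138 and 11 before it in Ngp (C/EBP), and 75 before it in Ltf (C/EBP). Fcnb holds C/EBP matches beginning 235 and 123 bases and a PU.1 match beginning 103 bases before the start site. Such matches describe the sequence and do not show binding.
Elane, chr10:79886062-79886361, plus strand: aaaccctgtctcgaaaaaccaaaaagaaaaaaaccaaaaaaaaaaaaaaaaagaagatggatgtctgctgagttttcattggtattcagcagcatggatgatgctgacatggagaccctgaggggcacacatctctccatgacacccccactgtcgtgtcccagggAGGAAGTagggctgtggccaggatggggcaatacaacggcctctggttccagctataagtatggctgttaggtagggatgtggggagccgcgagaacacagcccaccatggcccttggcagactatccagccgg
Prtn3, chr10:79879417-79879716, plus strand: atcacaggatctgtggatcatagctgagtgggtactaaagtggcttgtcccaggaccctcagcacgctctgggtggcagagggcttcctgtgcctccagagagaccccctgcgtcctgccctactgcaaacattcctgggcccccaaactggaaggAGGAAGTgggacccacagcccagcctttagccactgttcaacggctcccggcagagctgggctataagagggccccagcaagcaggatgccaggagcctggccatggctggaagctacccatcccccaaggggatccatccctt
Ngp, chr9:110419558-110419857, plus strand: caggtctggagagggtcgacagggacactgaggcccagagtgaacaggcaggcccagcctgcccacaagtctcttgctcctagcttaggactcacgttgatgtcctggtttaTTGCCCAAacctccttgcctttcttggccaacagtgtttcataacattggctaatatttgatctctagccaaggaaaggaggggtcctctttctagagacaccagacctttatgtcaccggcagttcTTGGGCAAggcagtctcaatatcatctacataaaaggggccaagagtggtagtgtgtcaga
Ltf, chr9:111019042-111019341, plus strand: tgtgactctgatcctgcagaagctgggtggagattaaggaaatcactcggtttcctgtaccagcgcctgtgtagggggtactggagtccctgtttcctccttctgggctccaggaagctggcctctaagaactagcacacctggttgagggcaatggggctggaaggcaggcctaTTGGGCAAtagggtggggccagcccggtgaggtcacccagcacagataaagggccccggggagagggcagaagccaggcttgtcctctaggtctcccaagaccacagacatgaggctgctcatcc
Fcnb, chr2:28084829-28085128, minus strand: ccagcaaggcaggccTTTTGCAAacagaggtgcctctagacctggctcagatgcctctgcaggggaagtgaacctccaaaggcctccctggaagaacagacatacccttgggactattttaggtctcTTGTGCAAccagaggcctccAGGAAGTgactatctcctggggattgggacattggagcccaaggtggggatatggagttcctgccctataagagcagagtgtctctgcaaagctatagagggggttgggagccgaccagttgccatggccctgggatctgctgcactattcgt

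Genes of the phagocyte oxidase, which makes superoxide for killing of microbes, rose with the granule genes. Cybb, its catalytic membrane subunit, had log2 signals of 9.79, 10.01, 10.67 and 10.35 in GMP GFP-, against 7.21, 6.99 and 7.66 in PreGM GFP-. The rise was 2.92 (SE 0.41, adjusted p = 0.000162), or 7.57-fold. The cytosolic subunit gene Ncf4 rose by 0.82 (adjusted p = 0.0375) and the proton channel gene Hvcn1 by 0.95 (adjusted p = 0.000582). Cyba and Ncf1, which encode the partner subunit of Cybb and a cytosolic subunit, differed by 0.99 and 0.60 without a call. All 6 measured genes of the list had differences above 0, and 3 were called. Ncf4 lost its call under 6 of 14 alternatives, and 2 or 3 of the 6 were called with any 1 of the 7 arrays left out.

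Several rises were of enzymes. Gda, the guanine deaminase gene, had 9.22, 9.13, 9.02 and 9.03 in GMP GFP-, against 5.57, 5.75 and 6.32 in PreGM GFP-, where all 3 arrays lay under the median signal. Alas1, the first enzyme of heme synthesis in cells other than erythroid ones, had 10.18, 10.57, 10.22 and 10.56 in GMP GFP-, against 8.50, 7.49 and 8.80 in PreGM GFP-. It rose by 2.12 (SE 0.23, adjusted p = 4.77e-06), or 4.35-fold, and Cpox, a later enzyme of the pathway, by 1.14 (adjusted p = 0.0261). These were the 2 called genes of 11 heme synthesis genes, whose median difference was 0.12. Gca, which encodes the calcium-binding protein grancalcin of neutrophils, rose by 2.90 from a mean under the median signal. Sgms2, a sphingomyelin synthase gene, rose by 2.59. B4galt6, a glycosphingolipid galactosyltransferase gene, rose by 2.72 from a mean under the median signal.

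Hdc, the enzyme that makes histamine, had 9.01, 8.99, 9.37 and 9.36 in GMP GFP-, against 7.15, 6.35 and 6.98 in PreGM GFP-. Its rise of 2.36 (SE 0.16, adjusted p = 3.59e-09) was the only rise called among 28 mast cell and basophil genes. The vesicular monoamine transporter gene Slc18a2, which loads histamine and serotonin into vesicles, fell by 1.85 to a mean under the median signal. The glutathione transferase genes Gstm1 and Mgst2 and the glutathione reductase gene Gsr, chosen after their values were seen, rose by 2.24, 2.04 and 2.12. The microsomal transferase gene Mgst1, among the 15 largest rises, rose by 2.52 from a mean under the median signal. Close relatives of Gstm1 may share its probes.

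Genes of protein folding and export shifted upwards by smaller amounts. All 30 measured secretory pathway and chaperone genes had differences above 0 (9215 of 19938 over all genes). In 21 every GMP GFP- array lay above every PreGM GFP- array, which 3.86% of all genes showed. The 4 called were Hyou1, an endoplasmic reticulum chaperone, by 1.07, Xbp1, the transcription factor of the unfolded protein response, by 0.79, Sdf2l1 by 0.80 and Ssr1, a subunit of the translocon-associated complex, by 0.46. The median of the list was 0.54, and it was 0.41 without PreGM GFP- array 2. Ssr1 lost its call under 12 of 14 alternatives.

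Monocyte and macrophage genes split in both directions. Of 29 measured genes 4 rose and 1 fell, with a median difference of 0.06. Clec5a, a lectin-like receptor gene of myeloid cells, had 8.13, 8.06, 8.01 and 7.15 in GMP GFP-, against 5.64, 4.87 and 5.56 in PreGM GFP-. Its rise was 2.48 (SE 0.22, adjusted p = 3.27e-07) from a mean under the median signal. Tfec, a transcription factor gene of the MITF family expressed in macrophages, rose by 2.20 (SE 0.43, adjusted p = 0.00666), the C-type lectin gene Clec12a by 1.05 (adjusted p = 0.0366) and the Fc receptor gene Fcgr4 by 0.85, with both means of Fcgr4 under the median signal. Ctss, the cathepsin S gene, fell by 1.04 (adjusted p = 0.0488). It had 9.52, 9.21, 8.27 and 8.06 in GMP GFP-, against 10.06, 9.77 and 9.57 in PreGM GFP-, and lost its call under 10 of 14 alternatives. Clec12a lost its call under 8 of 14.

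Of the 29 genes 9 had both means under the median signal. F13a1, Ly86, Ccr2 and Mpeg1, 4 uncalled genes of the list, lay above it. F13a1, the clotting factor gene, averaged 10.67 in GMP GFP- and 10.19 in PreGM GFP-, and Ly86, which encodes a partner of a Toll-like receptor homologue, 9.68 in GMP GFP- and 9.98 in PreGM GFP-. Ccr2, the chemokine receptor gene of inflammatory monocytes, had 8.56, 9.03, 7.79 and 7.35 in GMP GFP-, against 9.14, 8.56 and 8.12 in PreGM GFP-. The perforin-like gene Mpeg1 had 9.23, 9.46, 8.63 and 7.69 in GMP GFP-, against 9.75, 9.19 and 8.98 in PreGM GFP-. Arrays 1 and 2 of GMP GFP- were thus higher than arrays 3 and 4 in Ccr2, Mpeg1 and Ctss and lower in Ltf, Camp and Ngp. Over the whole list the mean log2 signal was 8.15, 8.19, 7.87 and 7.70 in GMP GFP- arrays 1 to 4, against 7.76, 7.71 and 7.79 in PreGM GFP-.

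Receptors of innate sensing moved little as a list, with 4 of 22 genes raised, 0 lowered and a median of 0.06. Besides Clec5a and Clec12a these were Tlr4, the lipopolysaccharide receptor gene, by 1.34 (adjusted p = 0.0135) and the beta-glucan receptor gene Clec7a by 0.87 (adjusted p = 0.00822), both from means under the median signal. Clec4a2, a lectin receptor gene with an inhibitory motif and no member of that list, rose by 2.81 (SE 0.24, adjusted p = 1.28e-07), also from a mean under it. The integrin beta 2 gene Itgb2, whose product pairs with several leukocyte integrin chains, rose by 0.99 (adjusted p = 0.0107) as the only called gene of 24 chemokine receptor, integrin and adhesion genes. Among 17 stroma and endothelium genes only Vcam1 rose, by 1.31 from a mean under the median signal, and 12 of the 17 had both means under it.

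Transcription factor genes of the granulocyte-monocyte fate mostly did not pass the test. Cebpe had log2 signals of 8.53, 8.68, 9.46 and 9.62 in GMP GFP-, against 6.89, 7.42 and 7.34 in PreGM GFP-. As for Ltf, arrays 3 and 4 of GMP GFP- were highest, and the groups did not overlap. It rose by 1.86 (SE 0.21, adjusted p = 8.22e-06), and Gfi1 by 0.40 (SE 0.09, adjusted p = 0.0334), a call that Gfi1 lost under 10 of 14 alternatives. They were the 2 called of 52 myeloid fate regulators, whose median difference was -0.01. At an unadjusted p under 0.05 limma had 5 of the 52 higher and 10 lower, where 4.5% and 3.67% of all genes were.

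Cebpa had 9.46, 9.10, 9.25 and 9.38 in GMP GFP-, against 9.14, 8.80 and 9.36 in PreGM GFP-, a difference of 0.20 (95% interval -0.20 to 0.59). Spi1 differed by 0.59 (95% interval -0.03 to 1.22) and Irf8 by -0.15 (95% interval -0.78 to 0.48). The groups overlapped for all 3 genes. Gata2, a factor of stem and mast cells, differed by -0.59 (adjusted p = 0.129) and Runx1, the core-binding factor gene of early blood cells, by -0.52 (adjusted p = 0.227), and for both every GMP GFP- array lay under every PreGM GFP- array. Id2, an inhibitor of E proteins, had 7.09, 7.002, 6.76 and 6.32 in GMP GFP-, against 8.75, 8.60 and 7.12 in PreGM GFP-. Its difference of -1.36 (adjusted p = 0.0523) was just outside the threshold.

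Among myeloid cytokine receptors, Ifngr1, an interferon gamma receptor chain, rose by 1.24 (adjusted p = 0.0116) and Il17ra, an interleukin 17 receptor chain, fell by 1.02 (adjusted p = 0.00748), as the only calls in 19 genes. Csf3r, the receptor of granulocyte colony-stimulating factor, had 8.85, 8.85, 8.93 and 9.05 in GMP GFP-, against 8.54, 8.13 and 8.51 in PreGM GFP-. It differed by 0.53 (95% interval 0.23 to 0.82, adjusted p = 0.0752), and Csf2ra, a chain of the granulocyte-macrophage colony-stimulating factor receptor, by 0.67 (95% interval 0.29 to 1.05, adjusted p = 0.0785). In both, every GMP GFP- array lay above every PreGM GFP- array without a call. Csf1r, the receptor of macrophage colony-stimulating factor, differed by 0.07 (95% interval -0.49 to 0.62), with overlapping groups.

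Lymphoid priming genes fell in GMP GFP-. Dntt, the terminal deoxynucleotidyl transferase that adds bases at antigen receptor joints, had log2 signals of 5.56, 5.48, 5.87 and 5.67 in GMP GFP-, against 10.54, 10.16 and 9.85 in PreGM GFP-. It fell by 4.54 (SE 0.20, adjusted p = 1.39e-12), the largest fall of all genes tested, and lay under the median signal in every GMP GFP- array. Flt3, a receptor tyrosine kinase of early lymphoid and dendritic progenitors, had 7.65, 6.88, 7.73 and 7.10 in GMP GFP-, against 10.28, 9.70 and 10.09 in PreGM GFP-. It fell by 2.69 (SE 0.25, adjusted p = 5.74e-07) or 6.44-fold, and remained above the median signal in all GMP GFP- arrays. Satb1, a genome organiser gene of lymphoid progenitors, had 8.86, 9.02, 9.07 and 8.95 in GMP GFP-, against 10.39, 9.90 and 10.45 in PreGM GFP-, and fell by 1.27 (SE 0.20, adjusted p = 0.000814).

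Il7r, the interleukin 7 receptor chain needed by lymphoid progenitors, had 5.42, 4.86, 5.23 and 4.86 in GMP GFP-, against 7.23, 6.91 and 5.91 in PreGM GFP-. PreGM GFP- array 3 was the lowest of its group and under the median signal, as was the group mean. Il7r and Flt3 were, with the interleukin 12 receptor gene Il12rb2, the 3 that fell of 17 stem and lymphoid cytokine receptor genes, and 1 rose, the cytokine gene Tslp, by 1.24 from a mean under the median signal. Il12rb2 lost its call under 8 of 14 alternatives. The survival gene Bcl2 fell by 1.01 (adjusted p = 0.000202), and the lymphocyte GTPase gene Gimap6 had a log2 difference of -2.34, with a GMP GFP- mean under the median signal. Gimap1, of the same family as Gimap6 and chosen after its value was seen, fell by 1.63. Of 26 lymphoid priming genes 7 fell, 0 rose and 25 had differences under 0, with a median of -0.63. Between 6 and 8 of the 26 were called lower when any of the 7 arrays was left out. Lsp1, a leukocyte actin-binding protein gene, differed by -1.12 (adjusted p = 0.0698) and the recombinase gene Rag1 by -0.71 (adjusted p = 0.177).

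Some genes of antigen presentation by class II molecules fell as well. H2-Aa, the alpha chain of a class II molecule, had 6.85, 6.35, 6.21 and 6.38 in GMP GFP-, against 9.39, 8.97 and 8.77 in PreGM GFP-. Its beta chain gene H2-Ab1 fell by 1.17 (adjusted p = 0.0176), and the invariant chain gene Cd74 fell by 1.29 (adjusted p = 0.0371), a call lost under 9 of 14 alternatives. H2-Aa fell by 2.60 (SE 0.45, adjusted p = 0.00187) to under the median signal in GMP GFP- arrays 2, 3 and 4. H2-Ob and H2-DMa, which encode chains of the peptide loading machinery and were chosen after their values were seen, also fell, with differences of -1.41 and -1.20. The class II beta chain gene H2-Eb1, at -0.43 (adjusted p = 0.424), and the class II transactivator gene Ciita, at -0.11 (adjusted p = 0.959), were not called. Of 20 dendritic cell genes, 4 fell (Flt3, H2-Aa, Cd74 and H2-Ab1), 0 rose and all 20 had differences under 0, with a median of -0.21, and 11 had both means under the median signal.

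Genes of the B lymphoid list were not called. All 21 measured genes had differences under 0, with a median of -0.30, and in 12 of them both means lay under the median signal. At the adjusted threshold 0 passed limma's test, while 10 were lower at an unadjusted p under 0.05, where 3.67% of all genes were. Vpreb1, a surrogate light chain gene of the pre-B cell receptor, had 9.47, 7.66, 9.56 and 5.71 in GMP GFP-, against 11.59, 11.81 and 9.14 in PreGM GFP-. The groups overlapped and its difference was -2.75 (SE 0.92, adjusted p = 0.228). Cd72, a B cell surface gene, differed by -1.43 (adjusted p = 0.0589) and the adaptor gene Blnk by -0.90 (adjusted p = 0.0541). With PreGM GFP- array 3 left out, 4 of the 21 were called lower. That array had the lowest mean of the list within its group, 6.51, beside 6.91 and 7.10 in arrays 1 and 2, while GMP GFP- arrays lay between 6.25 and 6.39. Among 21 T and NK lymphoid genes 1 fell, Gata3, by 0.78 (adjusted p = 0.0167), with both means under the median signal. In 15 of these 21 genes both means lay under it.

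**Figure D2:**
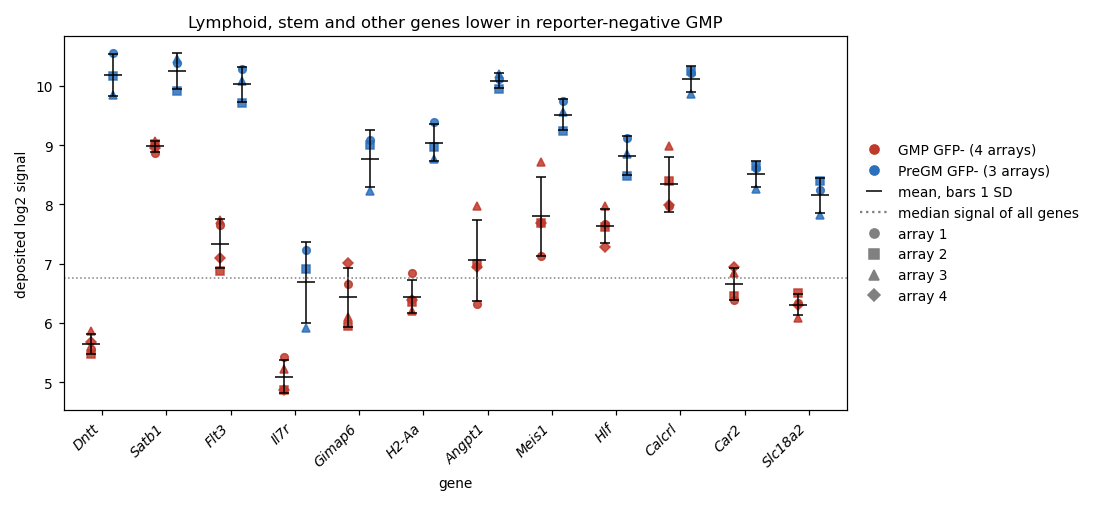
Deposited log2 signal (vertical axis) of genes that fell, in each of the 4 GMP GFP- arrays (red) and the 3 PreGM GFP- arrays (blue), with the mean and 1 SD as black bars, the array number as the marker shape and the median signal of 6.75 as a dotted line. All GMP GFP- arrays lie below all PreGM GFP- arrays for each gene, as was required of those among the 15 largest falls. Dntt shows the widest gap.

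Some stem cell genes fell, and most did not pass the test. Angpt1, a ligand of the receptor Tie2 made by stem and progenitor cells, had log2 signals of 6.31, 6.998, 7.97 and 6.93 in GMP GFP-, against 10.12, 9.94 and 10.20 in PreGM GFP-. It fell by 3.03 (SE 0.29, adjusted p = 9.31e-07), or 8.17-fold, with GMP GFP- array 3 the highest of its group. Meis1, a homeobox cofactor gene of stem cells, had 7.12, 7.68, 8.72 and 7.68 in GMP GFP-, against 9.75, 9.24 and 9.55 in PreGM GFP-. Here too array 3 was the highest of GMP GFP-, and the gene fell by 1.71 (SE 0.24, adjusted p = 0.000137).

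Hlf, a transcription factor gene of stem cells, fell by 1.18 (SE 0.16, adjusted p = 0.000107), and with Gata3, which also stands in this list, these were the 4 called of 38 stem cell genes. The median of the list was -0.14, 31 of the 38 had differences under 0, and 15 had both means under the median signal. At an unadjusted p under 0.05 limma had 12 of the 38 lower and 0 higher, where 3.67% and 4.5% of all genes were. Cd34, the surface antigen gene of progenitors, averaged 10.35 in GMP GFP- and 11.25 in PreGM GFP- (adjusted p = 0.127), and the homeobox gene Hoxa9 7.55 in GMP GFP- and 8.08 in PreGM GFP- (adjusted p = 0.257). Other large falls had log2 differences of -2.81 in Ctla2a, a cathepsin inhibitor gene, -2.64 in the ribonuclease gene Rnase6, -1.94 in Stxbp4, -1.91 in Myct1, a MYC target gene, -1.78 in the adrenomedullin and CGRP receptor gene Calcrl and -1.67 in Plek, the pleckstrin gene of platelets and leukocytes. Wfdc17, a gene of a secreted whey acidic protein, had a log2 difference of -1.89. The GMP GFP- means of Ctla2a, Stxbp4, Myct1 and Wfdc17 lay under the median signal. The 2 probe sets of Stxbp4 differed, at -1.94 and -0.55.

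Of the genes of lineages that Gata1 serves, 9 of 18 erythroid and 7 of 17 megakaryocyte genes had both means under the median signal. Among 18 erythroid genes 1 fell and 0 rose. It was Car2, a carbonic anhydrase gene, which had 6.39, 6.46, 6.84 and 6.94 in GMP GFP-, against 8.62, 8.65 and 8.26 in PreGM GFP-. Car2 fell by 1.85 (SE 0.24, adjusted p = 4.12e-05) to a mean under the median signal. The mean log2 signal of the erythroid list lay between 6.55 and 6.77 in GMP GFP- and between 6.57 and 6.92 in PreGM GFP-. Of 17 megakaryocyte genes limma called 0, with 2 lower at an unadjusted p under 0.05, and of 11 eosinophil genes 0, with 2 higher at that p (over all genes, 3.67% were lower and 4.5% higher). In 8 of the eosinophil genes the groups had both means under the median signal.

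Cell cycle genes were not called. All 24 G2 and M phase genes had differences above 0, with a median of 0.36, and 24 of 29 S phase and DNA replication genes, with a median of 0.22. PreGM GFP- array 2 had the lowest mean of both lists, 8.36 and 8.69, against 8.87 to 9.03 and 8.95 to 9.17 in the other PreGM GFP- arrays, and GMP GFP- arrays lay between 9.002 and 9.19 and between 9.04 and 9.22. Without that array the medians were 0.19 and 0.11. At an unadjusted p under 0.05 limma had 5 of the G2 and M phase and 4 of the S phase genes higher, where 4.5% of all genes were. Limma also called 0 of 22 MYC and ribosome biogenesis genes (0 at an unadjusted p under 0.05) and 0 of 20 interferon response genes (3 lower at that p). Of 19 lysosome genes 1 rose, Ctsb, the cathepsin B gene, by 0.80 (adjusted p = 0.0456), a call lost under 11 of 14 alternatives and without any 1 of the 7 arrays. Of 24 immediate early and stress genes 1 rose, Gadd45b, a stress sensor gene, by 1.39 from a mean under the median signal.

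**Figure D3:**
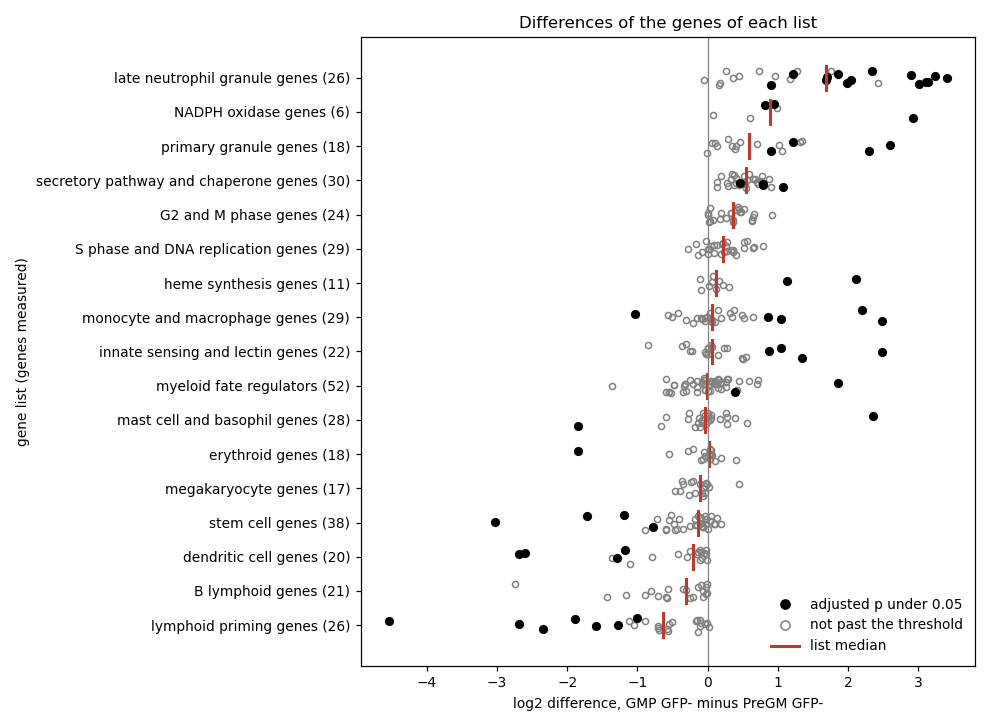
Log2 difference of GMP GFP- minus PreGM GFP- (horizontal axis) for every measured gene of the lists (vertical axis, genes measured in brackets). Filled points passed an adjusted p of 0.05, open points did not, and the red bar is the list median, from 1.69 in late neutrophil granule genes to -0.63 in lymphoid priming genes.

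The step without reporter signal was then set against the step with it, GMP GFP+ minus PreGM GFP+, which shares no array with it. Limma's test of the difference called 37 genes higher (0.186%) and 103 lower (0.517%) in the step without reporter. Several falls of lymphoid, stem cell and class II genes were among these. Dntt fell by 4.54 without reporter and differed by -0.04 with it (adjusted p of the difference = 4.38e-09). Flt3 had -2.69 without and 0.28 with reporter, Angpt1 -3.03 and 0.04, H2-Aa -2.60 and 0.42, and Satb1 -1.27 and 1.37, and the steps differed in each (adjusted p = 5.32e-05, 0.000244, 0.0247 and 1.47e-05). In the lymphoid priming list 7 of 26 genes were lower by this test and 0 higher. The mean log2 signal of this list was 8.11 in PreGM GFP- and 7.21 in GMP GFP-. With reporter it was already 7.27 in PreGM GFP+, and 7.29 in GMP GFP+.

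Among genes whose GMP GFP- and PreGM GFP- arrays did not overlap, Id2 had the lowest value of the step without reporter relative to the other step. It had -1.36 without reporter and 3.62 with it, a difference of -4.98 (SE 0.51, adjusted p = 3.97e-06). Slc9a9, an endosomal sodium-proton exchanger gene, had -0.87 without and 1.91 with reporter. Of 28 mast cell and basophil genes 12, and of 11 eosinophil genes 6, were lower in the step without reporter by this test, although only Slc18a2 of them fell within it. Over all genes 0.517% were lower by this test. Prg2, the gene of the eosinophil major basic protein, differed most between the steps, with 0.43 without and 5.67 with reporter, a difference of -5.25 (SE 0.67, adjusted p = 6.79e-05).

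Late neutrophil genes included 5 of 26 whose rise was larger without reporter, Camp, Chil3, Fcnb, Mcemp1 and Wfdc21, and 0 whose rise was smaller. Over all genes 0.186% were higher by this test. Camp rose by 3.13 without reporter and differed by 0.05 with it, and Chil3 had 3.23 and 0.47 (adjusted p of the difference = 0.0239 and 0.0409). Ly6a2, a gene of the Ly6 family, had 2.99 and 0.47, Clec4a2 2.81 and 0.37, Clec5a 2.48 and 0.32, and the membrane scaffold gene Stom 1.37 and -0.95. Prom1 and Hsd11b1, a membrane glycoprotein and a glucocorticoid-activating enzyme chosen after their values were seen, had 2.24 and 0.22, and 2.03 and -0.06. For the primary granule list 0 of 18 genes differed between the steps: Elane had 2.60 and 1.76 (adjusted p of the difference = 0.450), and Ms4a3 2.29 and 2.60 (adjusted p of the difference = 0.920). Cebpe had 1.86 and 1.32 (adjusted p of the difference = 0.754). These do not show that the steps were alike in such genes.

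**Figure D4:**
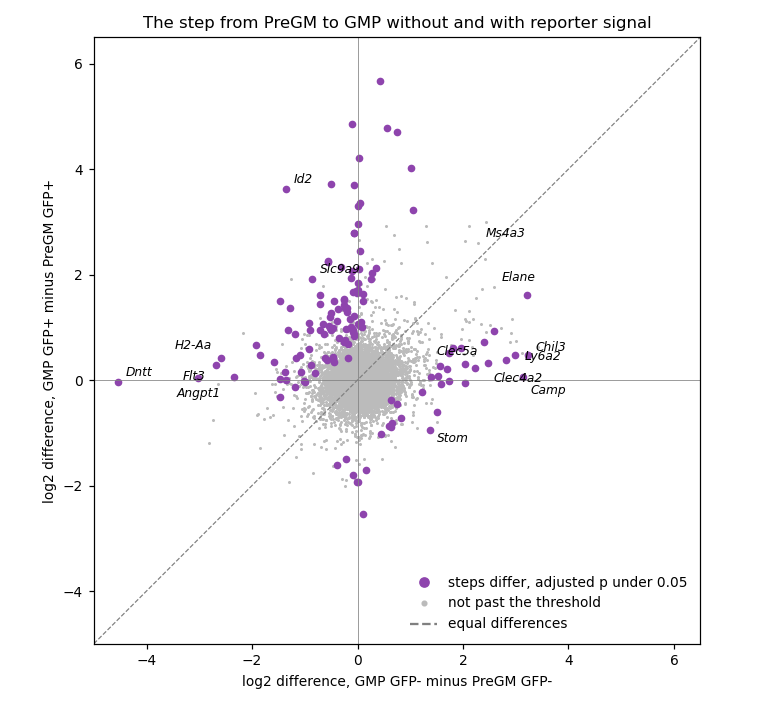
Log2 difference of GMP GFP- minus PreGM GFP- (horizontal axis) against GMP GFP+ minus PreGM GFP+ (vertical axis) for all 19938 genes. Purple points are the 37 and 103 genes whose steps differed at an adjusted p under 0.05, and the dashed line marks equal differences. Dntt lies at -4.54 and -0.04, Id2 at -1.36 and 3.62.

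Across the other sorted groups the genes with the largest differences did not follow a shared order. Dntt averaged 5.64 in GMP GFP- and 10.18 in PreGM GFP-, with 11.44 in lymphoid-primed multipotent progenitors (LMPP), 11.87 in common lymphoid progenitors (CLP) and 5.66 in stem cells (HSC GFP-). Angpt1 averaged 7.05 in GMP GFP-, 7.55 in CLP and 10.09 or more in every other group. Slc18a2 averaged 6.31 in GMP GFP- and 8.15 in PreGM GFP-, with 10.26 in GMP GFP+, 9.79 in PreGM GFP+ and 6.26 in CLP. Elane averaged 11.47 in GMP GFP- and 8.88 in PreGM GFP-, with 8.38 in GMP GFP+ and at most 6.77 in the means of the other groups.

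**Figure D5:**
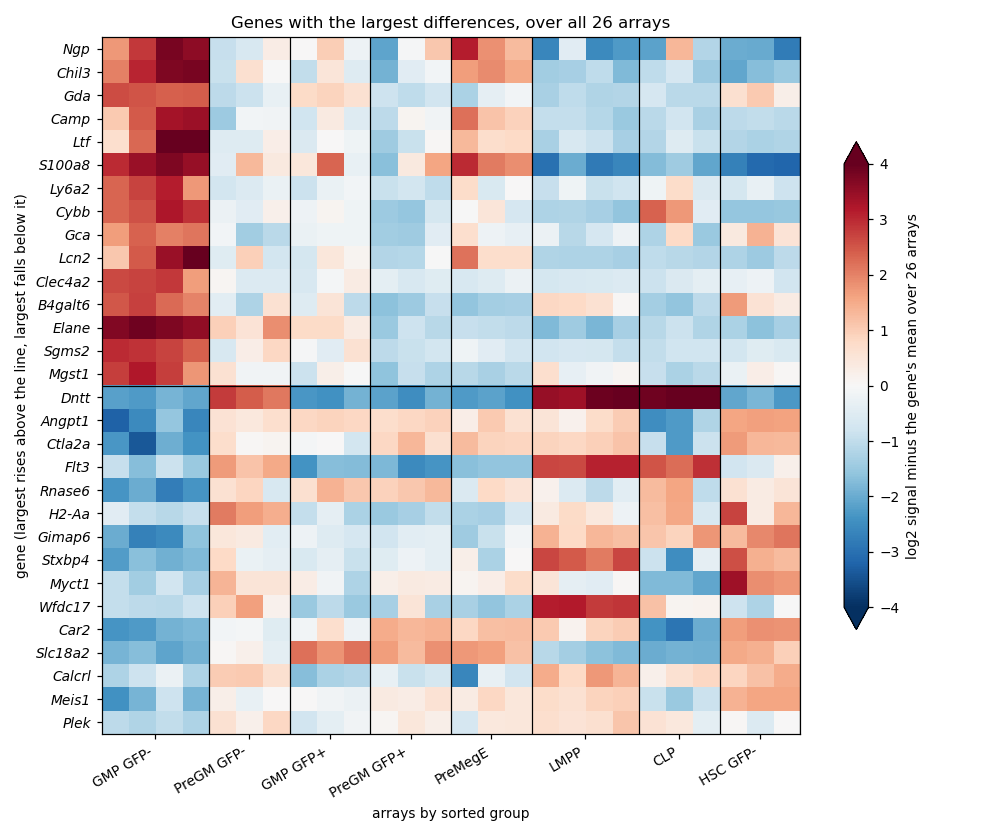
Log2 signal of the 15 genes with the largest rises (above the line) and the 15 with the largest falls (below it) in each of the 26 arrays, as the difference from the gene's mean over all arrays (red higher, blue lower, values past 4 on either side drawn in the end colours). Columns are arrays by group. GMP GFP- arrays are red in the upper block and mostly blue in the lower one, and Ngp and S100a8 are also raised in PreMegE.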

How the data were processed

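RNA of sorted cells was extracted with a RNeasy Micro kit and hybridised as biotin-labelled cRNA to Affymetrix Mouse Gene 1.1 ST arrays, per the labels. The authors deposited 1 log2 value per probe set and array. Robust multi-array averaging (RMA) and oligo are named in the submitters' processing notes, without versions, and the base of the logarithm is inferred from the range of the values. Of 35556 probe sets, 21789 named 1 gene in the annotation used, that of the 1.0 ST version, 1621 named several and 12146 none. For the 999 genes with several, the probe set of the highest mean over all arrays was kept. Genes with close relatives may share probes.

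Limma 3.58.1 under R 4.3.3 was fitted to all 26 arrays, each of the 8 groups with its own mean, and p-values were adjusted over the 19938 genes (Benjamini-Hochberg). Differences are GMP GFP- minus PreGM GFP-, and errors are SE of the fit or SD of arrays. Named genes are the 15 largest rises and falls among called genes whose arrays do not overlap (passing over clone identifiers, small RNAs, olfactory receptors and receptor segments), any gene of the lists, and the 6 largest differences between steps each way; others are said to be chosen after their values were seen. The groups, the members and the 29 gene lists were chosen with earlier results of these data known. The number of arrays limits the precision. The scripts were tested on simulated data. Alternatives varied the arrays fitted, their weights and centring, the variance prior, the low-signal filter, the choice of probe set, a replicate block and each array left out.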

Additional observations from a re-analysis of the deposited data

Results flagged for a closer look

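In 7 of 143 genes and list means examined, 1 GMP GFP- array lay far from the other 3, by a gap that was a large share of the group's range. Chance gives this in about 1 in 20 groups. Array 4 was low in Clec4a2 (gap 0.834 of the range), Clec5a (0.871) and Il17ra (0.892) and high in Cyba (0.895). Array 1 was high in Gata3 (0.918) and in the mean of the sort antigens (0.869), and array 3 was high in Gimap1 (0.959).

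The step without reporter differed from the step with it, by limma's adjusted p under 0.05, in 29 of 116 genes examined. Over all 19938 genes 0.186% were higher and 0.517% lower by this test. The 116 include genes named for large changes or for large differences between the steps, so their count is raised by that choice. The step without reporter was higher by 3.08 in Camp, 2.76 in Chil3, 2.51 in Ly6a2, 2.44 in Clec4a2, 2.32 in Stom, 2.16 in Clec5a, 2.09 in Hsd11b1, 2.01 in Prom1, 1.72 in Mcemp1, 1.66 in Sgms2, 1.60 in Gda, 1.49 in Fcnb, 1.46 in Wfdc21 and 1.34 in Gadd45b on the log2 scale. Its difference was lower, at -4.98 in Id2, -4.50 in Dntt, -3.07 in Angpt1, -3.02 in H2-Aa, -2.97 in Flt3, -2.78 in Slc9a9, -2.64 in Satb1, -2.40 in Gimap6, -2.32 in Slc18a2, -2.18 in Clec12a, -1.94 in Il7r, -1.59 in H2-Ab1, -1.50 in Runx1, -1.05 in Hlf and -0.99 in Bcl2. Clec12a rose in the step without reporter, by 1.05, and had a larger difference with reporter, of 3.23.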

How the results depend on the processing

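With arrays weighted by precision 65 genes were higher and 34 lower in GMP GFP-, and with the spread taken from the 7 arrays alone 109 were higher. The replicate block gave 171 higher and 76 lower. Between arrays of the same replicate number, deviations from the group means correlated at -0.042, -0.263 and 0.029. With so few arrays this cannot settle whether the numbers pair the samples. Over all alternatives other than left-out arrays, counts ran from 65 to 183 higher and from 34 to 101 lower. With 1 array left out they ran from 105 (without PreGM GFP- array 2) to 175 higher and from 58 (without PreGM GFP- array 1; 60 without GMP GFP- array 1) to 81 lower. For the difference between steps they ran from 30 to 59 higher (59 without PreGM GFP- array 1) and from 67 (without PreGM GFP+ array 2) to 98 lower. Among uncalled genes, leaving out 1 array moved Irf8 between -0.40 and 0.28, Csf1r between -0.32 and 0.37 and Kit between -0.43 and 0.11, so that their sign is not settled. Of 83 named called genes, 79 were tested under all 14 alternatives, and 46 of these passed the threshold in each. The filter on low signal left out Il7r, Fcgr4, Gata3 and Tslp, of which Il7r passed in the other 13. No direction turned among the 83 where tested. Besides the losses given above, Ltb4r1, called higher in the late neutrophil granule list, lost its call under 8 alternatives. H2-Ab1, H2-DMa, Cpox and Gata3 lost theirs under 5, Itgb2 under 4 and Calcrl, Serpinb1a, Tfec and Tlr4 under 3. Stxbp4, Wfdc17, Ifngr1, Tslp, Clec7a and Sdf2l1 lost it under 2.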
